A study of Mus musculus with 15 samples.

Results

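This account covers 8 mouse genes that are gastric-type or out of place in the intestine, the secreted mucins Muc6 and Muc5ac, the trefoil peptides Tff1 and Tff2, the protease Ctse, the small secreted protein Wfdc18, the secreted glycoprotein Lrg1 and the receptor Robo1. They were found by their gene identifiers in a table of 27179 genes, and all 8 were present and passed the filter on low counts. The genes were chosen by their measured levels in these same libraries, higher in tumor cells than in normal cells. The values of tumor against normal cells below are therefore a description. Where calls of the 8 genes on that contrast are counted, nothing is read from them. The comparison of Lrig1-high with Lrig1-low cells did not choose them and was tested.

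RNA was sequenced from sorted epithelial cells of Lrig1-eGFP-IRES-CreERT2 x APCmin mice. Every group carried both alleles, the Apc-min mutation that gives intestinal tumors and a green fluorescent reporter driven from Lrig1, which encodes a brake on ErbB signalling found in intestinal stem cells. EpCam-positive cells without CD45 and CD31 were sorted for high or low reporter signal from minced colonic tumors or from normal colonic epithelium, so the normal cells also come from mice with the mutation. The groups were tumor Lrig1-high (3 libraries), tumor Lrig1-low (3 libraries used of 4), normal Lrig1-high (4 libraries) and normal Lrig1-low (4 libraries). The labels name no animal and no age, and the spread behind each p-value is therefore that of libraries, which may be technical in part.

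Of the 15 libraries, 14 held 9508505 to 17296536 counts. S15, of the tumor Lrig1-low group, had 357 counts, none of them in the 8 genes, and was left out. Lrig1 checks the sort. It stood at 148.2, 55.7 and 72.5 CPM (counts scaled to the size of the library) in tumor Lrig1-high libraries S04, S08 and S12, against 53.2, 141.7 and 43.0 CPM in tumor Lrig1-low libraries S03, S07 and S11. In normal epithelium it stood at 126.2, 138.4, 36.4 and 145.9 CPM in Lrig1-high libraries S02, S06, S10 and S14, against 51.4, 45.3, 85.5 and 54.0 CPM in Lrig1-low libraries S01, S05, S09 and S13. Lrig1 thus went against the label in S07, S08, S09 and S10, and each direction between sorted fractions below rests on labels as deposited. Mitochondrial ribosomal RNA took 42.8% of the counts in S12 and 12.9% to 27.1% in the other 13 libraries. The tissue is labelled colon, while 14 small intestine markers summed to 2028 to 8080 CPM across the libraries, 13 colon markers summed to 101.1 to 388 CPM, and the distal colon factors Hoxb13 and Hoxd13 had no count in the 14 libraries.

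The stomach covers itself with layered mucus. Surface mucous cells secrete the gel-forming mucin Muc5ac together with the trefoil peptide Tff1, and mucous neck and gland cells secrete Muc6 together with Tff2. The intestine uses the gel-forming mucin Muc2 and the trefoil peptide Tff3 from goblet cells in their place, and Muc6 with Tff2 is found in the Brunner glands of the duodenum. Cathepsin E, the product of Ctse, is an intracellular aspartic protease abundant in gastric epithelium. Gastric-type genes in intestinal neoplasia are a known form of metaplasia, best described in human serrated lesions.

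Sequence around the gene start is shown for 3 members whose levels ran closely together in tumors. Their windows hold a match to the letters of the TATA box, the element that places the start of transcription. RefSeq (GRCm38.p6, the assembly also called mm10) gave a promoter for 4 of the 8 members, Muc6, Wfdc18, Lrg1 and Robo1, each 250 bases before to 50 bases after the annotated start. Capitals mark matches on either strand to 4 short patterns, with N for any base. The pattern for the TATA box was TATANAA. That for GATA factors was NGATAA. Wnt-regulated TCF factors were given CTTTGAN. For STAT factors the letters were TTCNNNGAA. No match overlapped another in the member windows.
Muc6, chr7:141655344-141655643, minus strand: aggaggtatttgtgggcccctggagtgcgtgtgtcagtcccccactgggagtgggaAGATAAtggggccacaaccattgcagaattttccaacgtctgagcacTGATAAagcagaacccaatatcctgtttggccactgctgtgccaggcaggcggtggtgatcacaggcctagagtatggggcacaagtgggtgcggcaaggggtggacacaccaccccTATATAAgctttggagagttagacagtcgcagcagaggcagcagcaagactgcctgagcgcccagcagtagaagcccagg
Wfdc18, chr11:83708754-83709053, plus strand: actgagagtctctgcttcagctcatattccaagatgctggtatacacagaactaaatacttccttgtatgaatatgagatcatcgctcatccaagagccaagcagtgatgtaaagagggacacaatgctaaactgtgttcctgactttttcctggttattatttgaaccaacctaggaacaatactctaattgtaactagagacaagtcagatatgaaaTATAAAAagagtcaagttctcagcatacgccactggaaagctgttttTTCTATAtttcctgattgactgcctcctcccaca
Lrg1, chr17:56121897-56122196, minus strand: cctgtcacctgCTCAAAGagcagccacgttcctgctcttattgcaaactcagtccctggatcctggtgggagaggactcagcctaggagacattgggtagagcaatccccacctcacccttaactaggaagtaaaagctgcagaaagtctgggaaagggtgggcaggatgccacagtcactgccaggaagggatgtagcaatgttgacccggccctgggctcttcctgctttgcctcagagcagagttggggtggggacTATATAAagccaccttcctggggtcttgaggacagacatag
The TATA match began at position -30 in Muc6 and at -31 in Wfdc18, counted from the annotated start, and at position 10 after the annotated start in Lrg1. In the annotation used for counting, Muc6 starts at 141655308 on the minus strand, outside the window shown. Its positions therefore hold for the start of the promoter entry alone. Wfdc18 held another TATA match on the opposite strand, at position 17 after the start. TATANAA occurs in 11.3% of the 32851 RefSeq promoters of this length, NGATAA in 25.3%, CTTTGAN in 15.96% and TTCNNNGAA in 8.3%. The Robo1 window held none of the 4 patterns, and none of the 4 member windows held TTCNNNGAA. These are matches of letters, not sites shown to be used.

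Muc6 (gene 353328, chromosome 7, 141634049 to 141655308, minus strand) was the most abundant of the 8 genes in CPM in the 6 tumor libraries. It stood at 151, 194 and 3781 CPM in tumor Lrig1-high libraries S04, S08 and S12 and at 603, 57.4 and 1815 CPM in tumor Lrig1-low libraries S03, S07 and S11. Normal Lrig1-high libraries S02, S06, S10 and S14 held 10, 1, 5048 and 5 counts, and normal Lrig1-low libraries S01, S05, S09 and S13 held 7, 26, 4014 and 12 counts. The 2 high normal libraries, S10 and S09, were at 306 and 265 CPM, above the tumor libraries S04, S07 and S08, so tumor and normal libraries overlapped. In the other 6 normal libraries Muc6 reached 2.33 CPM at most. S11 and S12 together held 84.8% of the summed tumor CPM.

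Muc5ac (gene 17833, chromosome 7, 141789011 to 141819135, plus strand) lies in the same mucin gene cluster and was much less abundant. Tumor Lrig1-high libraries S04, S08 and S12 had 9, 40 and 217 counts (0.713, 3.65 and 23.5 CPM), and tumor Lrig1-low libraries S03, S07 and S11 had 96, 0 and 901 counts (6.76, 0 and 66.7 CPM). Normal Lrig1-high library S10 had 230 counts (13.9 CPM) with 0 in the other 3 of its group, and normal Lrig1-low libraries S01, S05, S09 and S13 had 5, 1, 28 and 2 counts. S11 and S12 were the 2 tumor libraries above every normal library. A count of 0 in S07 allows up to 0.172 CPM (3 counts, counting error only).

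The trefoil peptides, which bind mucins and protect the mucosa, were low throughout. Tff2 (gene 21785, chromosome 17, 31141062 to 31144282, minus strand) had 69, 66 and 90 counts in tumor Lrig1-high libraries S04, S08 and S12 and 41, 72 and 81 counts in tumor Lrig1-low libraries S03, S07 and S11. It had 0, 6, 16 and 1 counts in normal Lrig1-high libraries S02, S06, S10 and S14, and 0, 0, 78 and 0 counts in normal Lrig1-low libraries S01, S05, S09 and S13. The tumor libraries lay between 2.89 and 9.73 CPM. Of the normal libraries, S09 reached 5.15 CPM, inside the tumor range.
Tff1 (gene 21784, chromosome 17, 31161396 to 31165053, minus strand) was at the edge of detection. It had 16, 20 and 0 counts in tumor Lrig1-high libraries S04, S08 and S12 and 15, 7 and 41 counts in tumor Lrig1-low libraries S03, S07 and S11. S10 and S09 had 6 and 8 counts and the other 6 normal libraries had none. S12, with the highest Muc6, was the tumor library without a Tff1 count.

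Ctse (gene 13034, chromosome 1, 131638314 to 131675507, plus strand) stood at 27.4, 55.2 and 70.2 CPM in tumor Lrig1-high libraries S04, S08 and S12 and at 109.6, 15.2 and 305 CPM in tumor Lrig1-low libraries S03, S07 and S11. Normal Lrig1-high libraries S02, S06, S10 and S14 had 2, 3, 746 and 10 counts, and normal Lrig1-low libraries S01, S05, S09 and S13 had 10, 12, 314 and 16 counts. S10 and S09, at 45.2 and 20.7 CPM, again lay inside the tumor range, and the other 6 normal libraries were at 1.24 CPM or less.

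Wfdc18, a small secreted protein with a WAP domain, the fold of many protease inhibitors (gene 14038, chromosome 11, 83709004 to 83711360, plus strand), was the one member whose tumor and normal libraries did not overlap. It stood at 38.5, 43.7 and 269 CPM in tumor Lrig1-high libraries S04, S08 and S12 and at 101.1, 22.1 and 142 CPM in tumor Lrig1-low libraries S03, S07 and S11. Normal Lrig1-high libraries S02, S06, S10 and S14 had 1, 0, 211 and 0 counts, and normal Lrig1-low libraries S01, S05, S09 and S13 had 7, 2, 93 and 0 counts. The highest normal value, 12.8 CPM in S10, lay below the lowest tumor value, 22.1 CPM in S07. Of the 13883 tested genes, 0.886% had every tumor library above every normal library, and since the choice of genes used this contrast nothing is read from it.

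Lrg1, a secreted leucine-rich glycoprotein that modulates TGF-beta signalling (gene 76905, chromosome 17, 56119678 to 56121946, minus strand), stood at 11.3, 8.21 and 51.2 CPM in tumor Lrig1-high libraries S04, S08 and S12. In tumor Lrig1-low libraries S03, S07 and S11 it stood at 23.9, 1.32 and 88.7 CPM. Normal Lrig1-high libraries S02, S06, S10 and S14 had 3, 6, 108 and 1 counts, and normal Lrig1-low libraries S01, S05, S09 and S13 had 9, 4, 43 and 4 counts. S10 and S09 were at 6.55 and 2.84 CPM, above the tumor library S07 and below the other 5.

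Robo1, a receptor for Slit ligands known from axon guidance (gene 19876, chromosome 16, 72663149 to 73046100, plus strand), stood at 9.43, 55.8 and 40.4 CPM in tumor Lrig1-high libraries S04, S08 and S12 and at 65.3, 10.5 and 206 CPM in tumor Lrig1-low libraries S03, S07 and S11. Normal Lrig1-high libraries S02, S06, S10 and S14 had 1, 0, 569 and 2 counts, and normal Lrig1-low libraries S01, S05, S09 and S13 had 0, 8, 126 and 4 counts. S10, at 34.5 CPM, lay above the tumor libraries S04 and S07, and S09 was at 8.32 CPM.

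**Figure D1:**
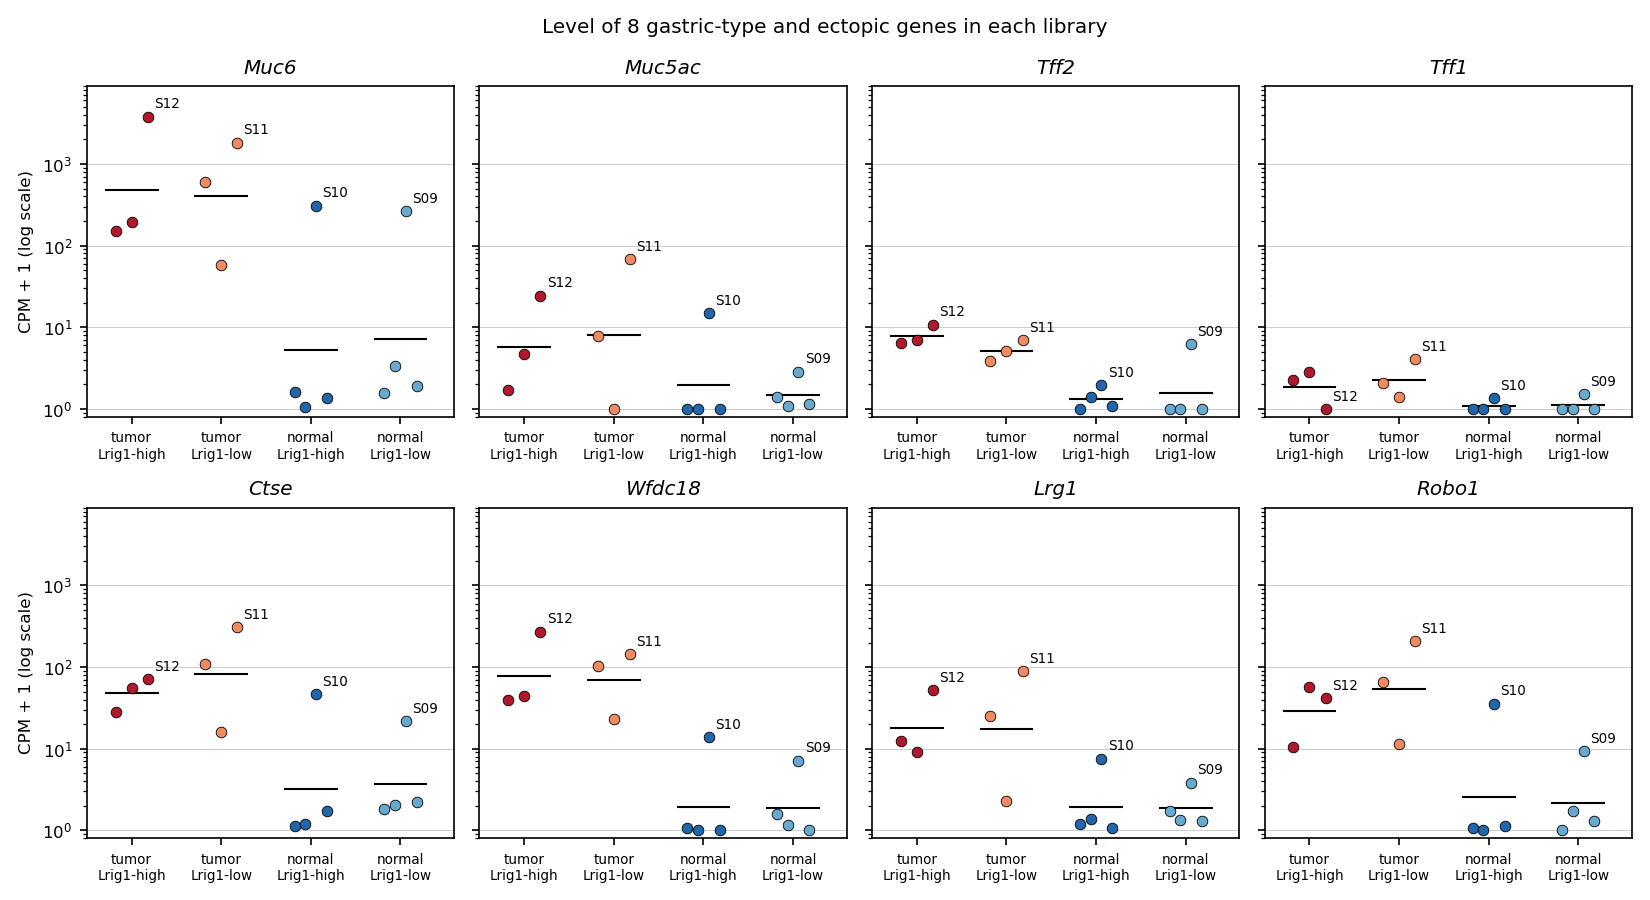
CPM + 1 of each of the 8 genes in each library on a log axis, with tumor Lrig1-high and Lrig1-low cells left of normal Lrig1-high and Lrig1-low cells; points are libraries, lines are means of the log values, and S09 to S12 are named. S10 and S09 stand far above the other normal libraries for most genes, with Muc6 at 306 and 265 CPM.

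Muc6 averaged 1375 ± 2084 CPM in tumor Lrig1-high cells and 825 ± 900 CPM in tumor Lrig1-low cells (SD, n = 3 each), against 76.8 ± 152.8 CPM in normal Lrig1-high cells and 67.2 ± 132 CPM in normal Lrig1-low cells (SD, n = 4 each). Tff2 averaged 7.07 ± 2.32 CPM in tumor Lrig1-high cells and 4.34 ± 1.57 CPM in tumor Lrig1-low cells (n = 3 each), against 0.36 ± 0.442 CPM in normal Lrig1-high cells and 1.29 ± 2.57 CPM in normal Lrig1-low cells (n = 4 each). In bulk RNA, more cells that express a gene and more RNA per cell cannot be told apart.

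The tumor over normal log2 fold changes, from one edgeR fit over the 14 libraries, were positive for 8 of 8 genes in both fractions. In Lrig1-high cells they were 4.16 ± 2.51 for Muc6, 1.40 ± 2.01 for Muc5ac, 4.25 ± 1.72 for Tff2 and 3.35 ± 1.75 for Tff1 (SE). For the other members in Lrig1-high cells they were 2.13 ± 1.59 for Ctse, 5.17 ± 1.72 for Wfdc18, 3.69 ± 1.43 for Lrg1 and 2.02 ± 1.74 for Robo1. In Lrig1-low cells they were 3.62 ± 2.45 for Muc6, 5.23 ± 2.30 for Muc5ac, 1.73 ± 1.57 for Tff2 and 3.34 ± 1.73 for Tff1. The rest in Lrig1-low cells were 4.56 ± 1.73 for Ctse, 5.63 ± 1.78 for Wfdc18, 5.12 ± 1.52 for Lrg1 and 5.29 ± 1.97 for Robo1. The member median was 3.52 in Lrig1-high cells, against -0.04 over the 13883 tested genes, and 4.84 in Lrig1-low cells, against 0.02 over the same genes, as the choice of the genes makes it. Whether a fold differed between the fractions was not tested.

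In edgeR, none of the 8 genes was past an adjusted p under 0.05 in the higher direction in either fraction. Over the table, edgeR called 0% of 13883 genes higher in tumor Lrig1-high cells (0 genes, with 983 at an unadjusted p under 0.05, 74 in DESeq2 and 0 in limma-voom with sample weights). It called 0.31% higher in tumor Lrig1-low cells (43 genes). In tumor Lrig1-low cells the number of members past the threshold was 7 in limma-voom with sample weights, 1 in DESeq2 (Lrg1), 6 in edgeR without S09 and S10, 6 without S07, S08, S09 and S10 and 1 without S10 (Wfdc18). In tumor Lrig1-high cells it was 5 without S07, S08, S09 and S10 and 0 in the other alternatives. Each alternative fit in which a member passed also called more genes over the whole table than the main fit did. Those numbers are in the closing section. Since the genes were chosen on this contrast, nothing is read from these counts. Muc5ac in Lrig1-high cells turned to -0.72 when S12 was left out, and no other tumor over normal fold was negative in the 23 alternative fits.

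The fold sizes depend on S09 and S10. Leaving both out, a choice made after seeing the data, moved Muc6 to 11.88 ± 1.97 in Lrig1-high cells and to 9.35 ± 1.78 in Lrig1-low cells. Ctse moved to 7.19 ± 1.07 in Lrig1-high cells and 7.10 ± 1.02 in Lrig1-low cells. Lrg1 moved to 6.67 ± 1.42 in Lrig1-high cells and 6.33 ± 1.37 in Lrig1-low cells. In the remaining 6 normal libraries the counts summed over libraries were 61 for Muc6, 53 for Ctse, 27 for Lrg1, 15 for Robo1, 10 for Wfdc18, 8 for Muc5ac, 7 for Tff2 and 0 for Tff1. Folds against such counts depend on a few reads.

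**Figure D2:**
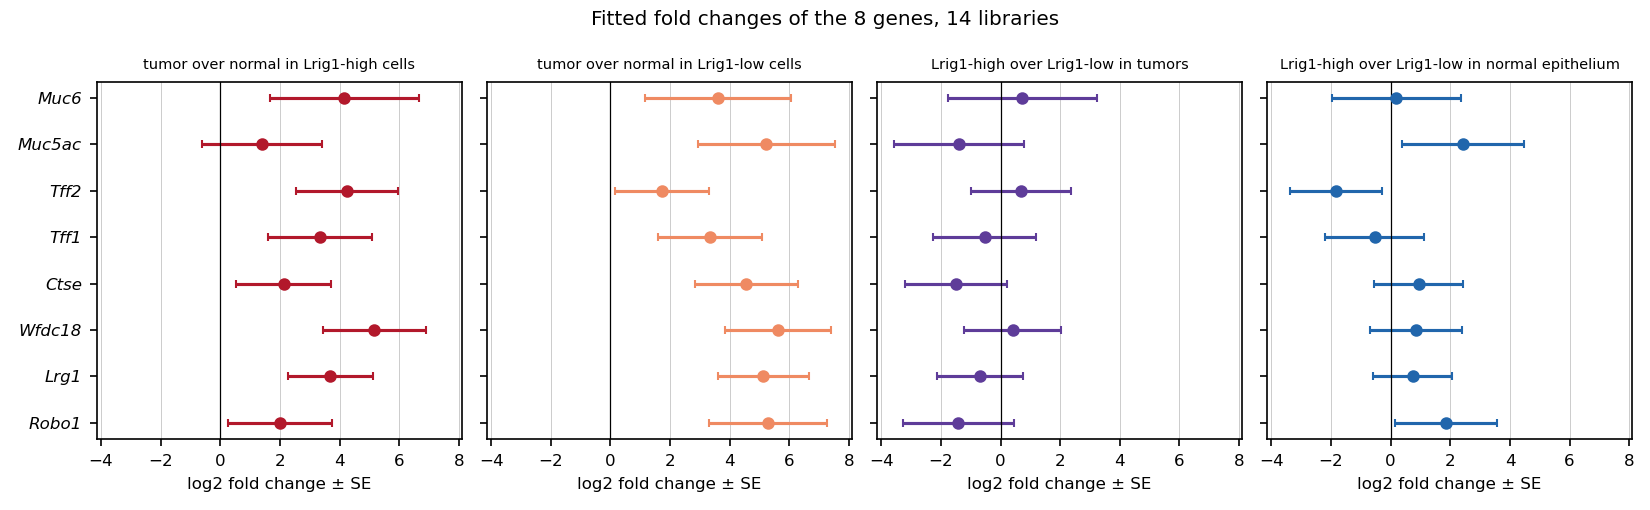
Fitted log2 fold changes with their SE for the 8 genes in 4 comparisons, tumor over normal in Lrig1-high cells and in Lrig1-low cells, and Lrig1-high over Lrig1-low in tumors and in normal epithelium. The tumor over normal folds lie right of 0, from 1.40 to 5.63, and those between sorted fractions lie on both sides of 0.

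The run of library numbers S01 to S12 holds 1 library of each group per 4 consecutive numbers, which gives 6 pairs of a tumor and a normal library of the same fraction. The labels do not say that a run shares an animal or a day. Over 8 genes and 6 pairs, the tumor library was higher in 46 of 48 comparisons, which the choice of the genes makes likely. Over all 13883 tested genes the tumor library was higher in 48.1% of the comparisons in the same pairs. The exceptions were Muc5ac in S07 against S05, with 0 against 1 count, and Tff1 in S12 against S10, with 0 against 6 counts.

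S09 and S10 held 84.8% to 100% of the counts of each gene over the 8 normal libraries. Their numbers stand next to S11 and S12, the 2 tumor libraries with the highest Muc6. The level in S10 was 7.38% to 20.9% of that in S11 over the 8 genes, with a median of 15.5%. The level in S09 was 2.77% to 85.9% of that in S11, with a median of 5.56%, and Tff2 was the highest. Against S12 the spread was wide for both libraries, leaving out Tff1, which had no count in S12. The level in S10 was 4.75% to 85.3% of that in S12, with a median of 12.8%. That in S09 was 2.28% to 52.9%, with a median of 7.88%. In S09 and S10, Muc6 exceeded Wfdc18 by 43.2 and 23.9 times in counts, against 3.93 to 14.03 times in tumor Lrig1-high libraries and 2.60 to 12.7 times in tumor Lrig1-low libraries. The Wnt target genes Notum and Nkd1, high in tumors, followed the same order. Notum was at 41.8 CPM in S10, 15.5 CPM in S09 and 1.48 CPM or less in the other 6 normal libraries. Nkd1 was at 97.7 CPM, 33.9 CPM and 9.14 CPM or less. Not every Wnt target did so, with Axin2 at 62.3 CPM in S10 and 138 CPM in S09. The Wnt target list summed to 611 CPM in S10, against 1087 to 1426 CPM in the other normal Lrig1-high libraries. In S09 the sum was 831 CPM, against 279 to 318 CPM in the other normal Lrig1-low libraries. Of 15 Wnt target genes, all tested, 2 passed in tumor Lrig1-low cells, Cd44 and the transcription factor gene Sp5, which rose by 3.41 ± 0.60 (edgeR adjusted p = 0.0337; lost without S01, S02, S05, S11 or S13, and at 0.0572 when only the groups compared were fitted). What sets these 2 libraries apart was not tested.

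The next comparison asked whether the 8 genes differ between the sorted fractions. In tumors the log2 fold changes of Lrig1-high over Lrig1-low cells ran from -1.49 ± 1.71 for Ctse to 0.74 ± 2.49 for Muc6 (SE), with 3 of 8 positive. Their edgeR adjusted p ran from 0.835 to 0.958, so no difference was detectable. Robo1 was at -1.41 ± 1.87, Muc5ac at -1.40 ± 2.18, Lrg1 at -0.69 ± 1.43, Tff1 at -0.52 ± 1.73, Wfdc18 at 0.40 ± 1.62 and Tff2 at 0.70 ± 1.68. The SEs leave room for differences of several fold either way. Of 13883 genes edgeR called 0% here (0 genes, with 1042 at an unadjusted p under 0.05, 22 in DESeq2 and 0 in limma-voom with sample weights). Muc6 and Wfdc18 turned negative without S12, at -2.19 and -1.05. Likewise, Lrg1, Muc5ac and Tff1 changed direction without S11, to 0.90, 1.45 and 0.50. The signs of Muc6, Wfdc18 and Tff1 also turned in other settings, given in the closing section.

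In normal epithelium the same comparison ran from -1.82 ± 1.54 for Tff2 to 2.43 ± 2.04 for Muc5ac, and each edgeR adjusted p was 1. When the normal groups alone were fitted, 2 of the 8 genes, Muc6 and Ctse, passed the filter on low counts, so the other 6 entered this test through their levels in tumor libraries. Ctse was at 0.94 ± 1.497, Wfdc18 at 0.86 ± 1.54, Lrg1 at 0.74 ± 1.33, Robo1 at 1.86 ± 1.71, Muc6 at 0.19 ± 2.15 and Tff1 at -0.53 ± 1.67. The table had 0% of 13883 genes called by edgeR (0 genes, with 499 at an unadjusted p under 0.05, 1 in DESeq2 and 4169 in limma-voom with sample weights). These folds compare S10 with S09, since the other 6 libraries add little: without S10, Muc6 moved to -7.53 and Ctse to -4.12. Both libraries are among those where Lrig1 went against the label.

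Compared per length, the order of the genes changed. In RPKM, which is CPM divided by the exon length in kilobases, Wfdc18, with 544 bases of exon, was the highest member in each of the 6 tumor libraries, from 40.6 RPKM in S07 to 495 RPKM in S12. Muc6, with 8022 bases, ran from 7.15 RPKM in S07 to 471 RPKM in S12. Mean levels in tumor Lrig1-high cells were 215 ± 242 RPKM for Wfdc18, 171 ± 260 for Muc6, 24.0 ± 10.3 for Ctse, 17.4 ± 17.7 for Lrg1 and 12.4 ± 4.06 for Tff2 (SD, n = 3). In the same cells Robo1 was at 4.66 ± 3.12, Tff1 at 2.16 ± 1.96 and Muc5ac at 1.09 ± 1.46 RPKM. Tumor Lrig1-low cells had 163 ± 112 RPKM for Wfdc18, 102.9 ± 112 for Muc6, 67.5 ± 69.6 for Ctse, 28.1 ± 33.5 for Lrg1 and 12.4 ± 13.3 for Robo1. Tff2 was at 7.60 ± 2.74, Tff1 at 3.13 ± 2.87 and Muc5ac at 2.88 ± 4.32 RPKM there. Neighbours in these orders differed by less than the larger of their SDs, except Tff2 and Robo1 in tumor Lrig1-high cells and Tff2 and Tff1 in tumor Lrig1-low cells.

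Among the tumor libraries the members fell into sub-patterns, given as a description over 6 libraries that share depth and composition. Muc6 and Wfdc18 ran together, with a Pearson r of log2 CPM of 0.994 and a Spearman rho of 1, and both peaked in S12. Ctse and Robo1 ran together at r = 0.957 and rho = 0.886, and both peaked in S11. Between these pairs the likeness was lower, with r = 0.779 for Muc6 and Ctse and r = 0.694 for Muc6 and Robo1. Lrg1 had r = 0.928 with Muc6, 0.885 with Ctse and 0.754 with Robo1, and Muc5ac had r = 0.927 with Muc6, 0.935 with Ctse and 0.885 with Robo1. Tff1 and Tff2 did not follow them: Tff1 had r = -0.245 with Muc6, and Tff2 had r = 0.513 with Muc6 and 0.110 with Ctse. In counts, Muc6 exceeded Ctse by 53.9 times in S12 and by 3.51 to 5.96 times in the other 5 tumor libraries. In S12 the number of genes with a count was the lowest, 11995, and the share of mitochondrial ribosomal RNA the highest, and their part in its Muc6 value was not tested.

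**Figure D3:**
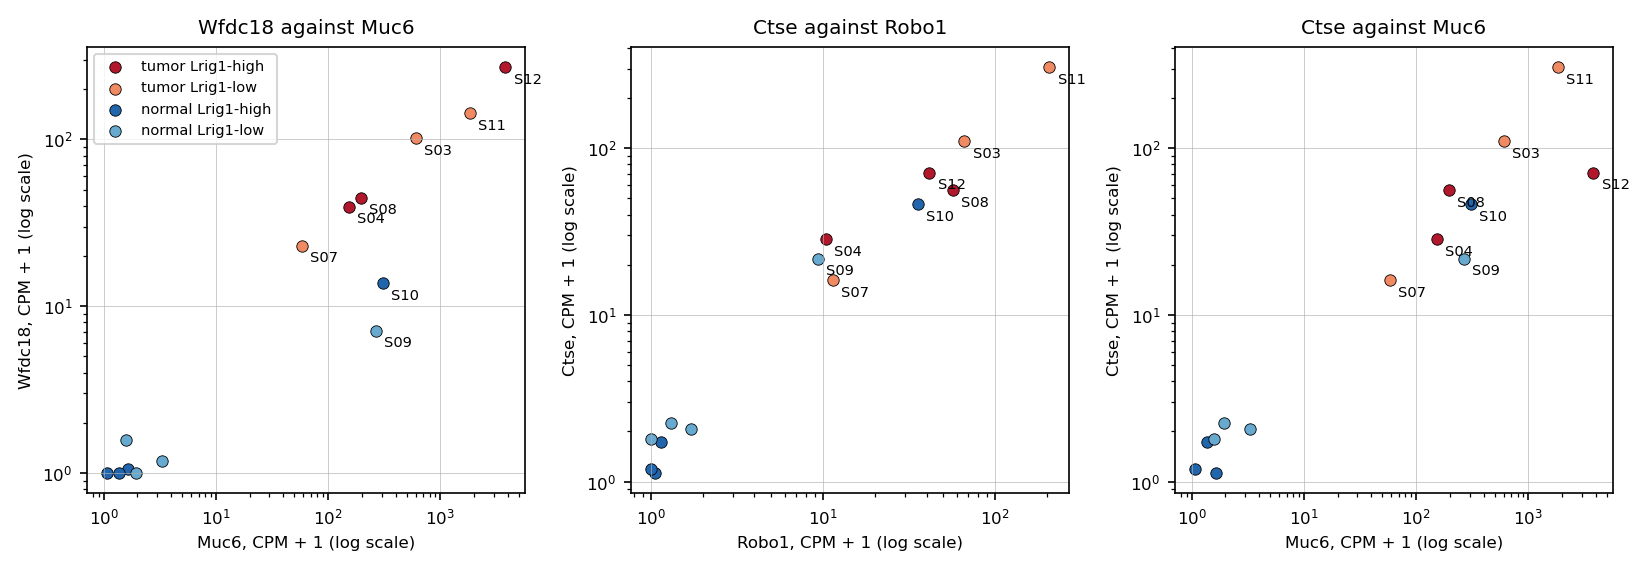
Wfdc18 against Muc6, Ctse against Robo1 and Ctse against Muc6, in CPM + 1 on log axes; each point is a library, colored by group, with tumor groups first in the legend. S12 is the highest library for both Wfdc18 and Muc6 (269 and 3781 CPM), while its Ctse, at 70.2 CPM, lies below that of S11 and S03.

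The genes most like each member were taken as the 3 tested genes with the highest Pearson r over the 14 libraries, passing over predicted, mitochondrial, ribosomal protein and immune receptor genes, a measure that includes the step between the near-zero normal libraries and the rest. Muc6 was most like Scara3, a scavenger receptor family member (r = 0.971), the Wnt feedback inhibitor Notum (0.969) and the interferon-induced Ifitm1 (0.969). Ctse and Robo1 named each other (0.985) and shared Clu, clusterin, a secreted chaperone known as a marker of regenerating intestinal epithelium (0.988 and 0.987), and Ctse was also like Notum (0.98) and Robo1 like Msrb3 (0.979). Clu stood at 132, 403 and 355 CPM in tumor Lrig1-high libraries S04, S08 and S12 and at 539.9, 147 and 1629.7 CPM in tumor Lrig1-low libraries S03, S07 and S11. Among normal libraries it was at 271 CPM in S10 and 96.7 CPM in S09 and at 0.993 to 15.6 CPM in the other 6.
Wfdc18 was most like Scara3 (0.983), Bpifb1, a secreted protein of airway and gastric mucosa (0.974), and Palmd (0.971). Lrg1 was most like Plat, tissue plasminogen activator (0.974), Asb4 (0.959) and Vtcn1 (0.957). Muc5ac was most like Btbd17 (0.966), the homeobox gene Msx1 (0.963) and the leptin receptor Lepr (0.947). Tff1 was most like Rhoj (0.971), Sbspon (0.964) and Ugt8a (0.952).
Tff2 was most like Aqp5, a water channel of gastric gland and Brunner gland cells (0.927), then Scara3 (0.919) and Wfdc18 (0.913). Within the 6 tumor libraries its r with Aqp5 was 0.109, whereas that of Robo1 with Clu was 0.989 and that of Muc5ac with Btbd17 was 0.978.

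Other gastric genes were read from lists by cell type, leaving the 8 members out. These lists and those below were drawn up with earlier results of these data known. Their medians and counts of positive folds are therefore a description. In the list of mucous neck and pyloric gland cells, 7 of 7 tested genes had a positive tumor over normal fold in both fractions, with medians of 1.35 in Lrig1-high cells and 2.55 in Lrig1-low cells. Over all tested genes, 6574 of 13883 were positive in Lrig1-high cells and 7223 of 13883 in Lrig1-low cells. One of the 7 passed the test, Cd44, a hyaluronan receptor and Wnt target, which rose by 3.07 ± 0.44 in tumor Lrig1-low cells (edgeR adjusted p = 0.0106). It stood at 144, 287 and 294 CPM in S03, S07 and S11, against 20.8, 20.7, 54.9 and 18.9 CPM in S01, S05, S09 and S13. Leaving out 1 library kept its fold between 2.87 and 3.55, and the call was lost without S01, S05, S11 or S13 (highest edgeR adjusted p = 0.0884). Gkn3, a gastrokine of gland mucous cells, was at 28.6, 36.1 and 104.4 CPM in tumor Lrig1-high libraries S04, S08 and S12, against 10.1, 14.04, 21.5 and 5.07 CPM in normal Lrig1-high libraries S02, S06, S10 and S14. The edgeR adjusted p for Gkn3 was 0.490 there.

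Surface mucous cell genes were sparse. Of 12 others in that list, 8 were tested, 6 had a positive fold in each fraction, none passed the test and the medians were 2.27 in Lrig1-high cells and 4.10 in Lrig1-low cells. Its highest members, the calpains Capn9 and Capn8 and the gastrokine Gkn1, behaved differently from each other. Gkn1 had 1.19, 13.8 and 14.5 CPM in S04, S08 and S12 and 9.86, 5.12 and 19.7 CPM in S03, S07 and S11, and in normal libraries it was at 13.03 CPM in S10, 3.96 CPM in S09 and 0.716 CPM or less elsewhere. Capn9 was at 0 to 27.1 CPM in tumor libraries and at 6.69 to 36.2 CPM in normal libraries.

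Chief and parietal cell genes were mixed. Atp4b and Kcne2, subunits of the gastric acid pump and its potassium channel, had no count in the 14 libraries, whereas Atp4a, the catalytic subunit of the pump, had 228 counts (16.9 CPM) in S11 and 124 counts (13.4 CPM) in S12, the 2 libraries with the highest Muc6, and 3.83 CPM or less in the other 12. The pepsinogen gene Pga5 reached 0.222 CPM and the gastric lipase gene Lipf 5.33 CPM in S11. Pgc, progastricsin, reached 21.6 CPM in S11 and 8.85 CPM or less in the other 13 libraries. None of the 4 chief cell genes and 5 parietal cell genes tested passed the test in any comparison.

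The stomach transcription factor list had 9 tested genes, of which 6 were positive in each fraction. Foxq1, a forkhead factor that regulates Muc5ac in mouse stomach, rose by 3.24 ± 0.51 in tumor Lrig1-low cells (edgeR adjusted p = 0.0157), with 40.2, 19.1 and 72.4 CPM in S03, S07 and S11, against 3.42, 4.74, 3.17 and 7.23 CPM in S01, S05, S09 and S13. Its call was lost without the same 4 libraries, each in turn (highest edgeR adjusted p = 0.0928). Sox2 and Barx1, which specify stomach in the embryo, stayed at 0.634 CPM or less and 0.199 CPM or less. Of 12 intestinal factors tested, Gata4 passed the test, falling by 0.94 (SE 0.17, adjusted p = 0.0359) in tumor Lrig1-low cells. The Gata4 call held in 6 of 14 fits that left out 1 library and was lost without S01, S02, S04, S05, S06, S07, S11 or S13 (highest edgeR adjusted p = 0.150). It was also lost with runs of library numbers as a block (edgeR adjusted p = 0.0696), with S15 (0.0985) and with a fit of only the groups compared (0.0556). Cdx2, which holds intestinal identity, did not pass, with log2 folds of -0.54 ± 0.29 in Lrig1-high cells and -0.63 ± 0.29 in Lrig1-low cells. It was lowest in S12 and S11, at 44.8 and 56.6 CPM, the 2 libraries with the highest Muc6, against 82.9 to 120.0 CPM in the other 4 tumor libraries and 97.0 to 151 CPM in normal libraries.

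The intestinal counterparts were read in every library, normal ones included. Muc2, whose gene lies between Muc6 and Muc5ac, stood at 1197, 2073 and 1349.5 CPM in S04, S08 and S12 and at 1257, 1556 and 173 CPM in S03, S07 and S11. In normal cells it stood at 872, 409, 1381 and 499.5 CPM in S02, S06, S10 and S14 and at 1431, 2136, 591 and 2765 CPM in S01, S05, S09 and S13. Muc6 exceeded Muc2 in CPM by 10.5 times in S11 and by 2.80 times in S12, and was below it in the other 12 libraries. Tff3, next to Tff2 and Tff1 on chromosome 17, was at 38.4 to 309 CPM in tumor libraries and 126 to 574 CPM in normal libraries. Neither passed the test in any of the 4 comparisons. Ap2a2 and Tollip, neighbours of the mucin cluster, were also read in every library, at 75.5 to 213 CPM and 31.3 to 75.3 CPM. Neither they nor Rsph1, the tested neighbour of the trefoil cluster, passed the test.

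**Figure D4:**
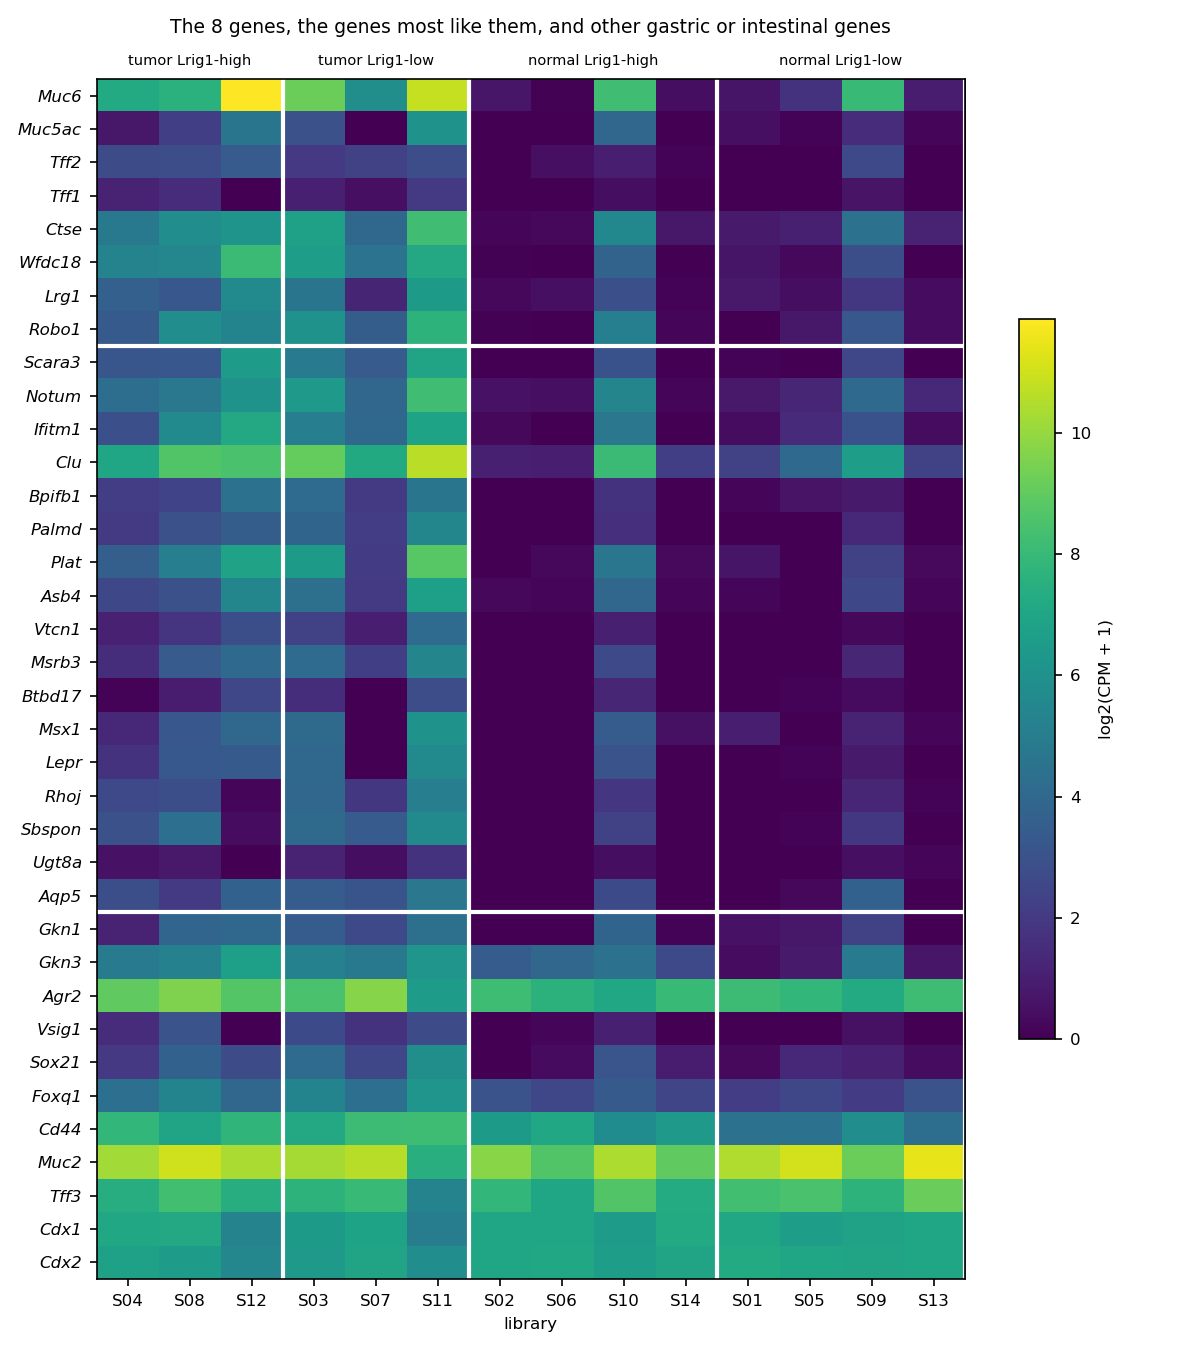
log2(CPM + 1) of the 8 genes (top), the genes most like them (middle) and other gastric or intestinal genes named in the text, several of them after their values were seen (bottom), in 14 libraries ordered as tumor Lrig1-high, tumor Lrig1-low, normal Lrig1-high and normal Lrig1-low. The columns S10 and S09 resemble the tumor columns in the top and middle blocks, and Muc2 is read in each column.

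Few genes of the members' pathways passed the test. Of 20 genes of mucus secretion, 19 were tested and none passed. Agr2, a chaperone of mucin folding, was at 498, 766 and 416 CPM in S04, S08 and S12 and at 356.5, 844 and 91.8 CPM in S03, S07 and S11. In normal cells Agr2 was at 289.7, 201, 139 and 253 CPM in S02, S06, S10 and S14 and at 279, 232, 154 and 287 CPM in S01, S05, S09 and S13, with a log2 fold of 1.35 ± 0.53 in Lrig1-high cells (adjusted p = 0.383). A4gnt, which makes the glycan typical of gland mucins, stood at 14.4, 1.09 and 19.7 CPM in S04, S08 and S12 and at 3.31, 31.2 and 0.148 CPM in S03, S07 and S11, so its lowest tumor value fell in a library with high Muc6. Among 4 tested aspartic proteases and 12 tested cathepsins none passed.

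Of 11 other WAP domain genes, 9 stayed under 1 CPM in each library, and Wfdc15b and Wfdc2 reached 3.33 and 2.62 CPM. None of 17 tested genes of the Slit and Robo pathway passed. The ligand gene Slit2 was read at 6.30 to 17.1 CPM in tumor libraries and 2.15 to 8.47 CPM in normal libraries, and the receptor genes Robo3 and Robo4 stayed at 0.424 CPM or less and 0.287 CPM or less. The receptor gene Robo2 was at 4.22 CPM in S11, 3.83 CPM in S08 and 0.845 CPM or less in the other 4 tumor libraries, against 0.242 CPM or less in normal libraries. Of 14 tested Lrg1 partners and TGF-beta receptor genes, Tgfbr2 rose in tumor Lrig1-low cells by 2.29 ± 0.35 (edgeR adjusted p = 0.0156), with 58.3, 50.7 and 139.6 CPM in S03, S07 and S11, against 13.6, 12.4, 26.6 and 14.9 CPM in S01, S05, S09 and S13. This call too was lost without S01, S05, S11 or S13 (highest edgeR adjusted p = 0.0884) and in the fit of only the groups compared (0.0556). Eng, the accessory receptor through which Lrg1 acts in endothelium, was at 0.571 CPM or less. None of 17 tested genes of the interleukin-6, interleukin-22 and STAT3 response passed, among them Reg3b, Reg3g and Stat3. None of 14 tested markers of serrated lesions and metaplasia passed, with 13 positive in Lrig1-high cells and 14 in Lrig1-low cells and medians of 2.09 in both.

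Markers of other cells were read as a check. The leukocyte list summed to 2.92 to 57.1 CPM in tumor Lrig1-high cells and 7.33 to 18.9 CPM in tumor Lrig1-low cells. In normal Lrig1-high cells it summed to 8.25 to 13.3 CPM and in normal Lrig1-low cells to 5.75 to 30.2 CPM. Of its 17 genes, 13 stayed under 1 CPM. Ptprc, which encodes the CD45 antigen used to deplete leukocytes, did not. It was at 46.1 CPM (505 counts) in S08, the library with the highest sum, and at 11.2 CPM in S05 and less elsewhere. Of 14 neutrophil genes, 9 had no count, S100a8, S100a9, Mpo and Elane among them, and the sum was almost wholly Ltf, 96.6 CPM in S11. The endothelial list summed to 223 CPM in S11 and to 62.1 CPM or less elsewhere. Of that list Cdh5 was at 155 CPM, Flt1 at 23.8 CPM, Vwf at 21.4 CPM and Tek at 14.6 CPM in S11. Pecam1, the CD31 antigen used to deplete these cells, was at 1.11 CPM there, and Cldn5 and Emcn had no count in the 14 libraries. The fibroblast and muscle list summed to 129 CPM in S11 and to 46.2 CPM or less elsewhere, with Col1a1, Col1a2 and Col3a1 at 0.858 CPM or less. In that list Vim was at 95.2 CPM and Pdgfra at 26.1 CPM in S11, and Myh11 was at 23.5 CPM and Acta2 at 12.8 CPM in S12, where Muc6 and Wfdc18 peaked. Cdh5, Flt1, Vwf, Tek, Ltf, Vim and Pdgfra were highest in S11, where Ctse, Robo1, Lrg1 and Muc5ac also peaked, and the part of these markers and of Myh11 and Acta2 in the result was not tested. The Brunner gland list, whose glands secrete Muc6 and Tff2, summed without the members to 437 to 770.3 CPM in tumor Lrig1-high cells and 143 to 863 CPM in tumor Lrig1-low cells, against 152 to 301 CPM in normal Lrig1-high cells and 181.5 to 291 CPM in normal Lrig1-low cells. Most of that was Agr2.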

How the data were processed

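RNA was measured in 15 libraries of sorted mouse epithelial cells. The deposited values are raw counts of reads per gene, made by the authors with featureCounts 1.5.3 on mm10 RefSeq exons with reverse strand counting, per the file headers. Sequencing was paired-end, per the labels' protocols, and the header names no option for pairs or multi-mapping reads, so mates may have been counted separately and reads shared between loci may be lost. Trimmomatic and HISAT2 are named in the submitters' processing notes, with no version. Gene identifiers were paired with symbols through RefSeq and GENCODE tables (25275 and 18 matched, 1886 not).

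S15 (357 counts) was left out, as the choice of genes asks. The 14 other libraries were fitted in edgeR 4.0.16 (R 4.3.3) by its quasi-likelihood test with 1 coefficient for each group, after TMM scaling and filterByExpr (13883 genes). P-values were adjusted over these genes by Benjamini-Hochberg, and 0.05 was the threshold. Each SE was taken as |log2 fold change| over √F. CPM uses TMM factors, and RPKM divides it by exon length. Correlations used log2 CPM with a prior count of 2. Floors and counts cover counting error only, since reads without molecular identifiers are not independent molecules. The fit was tested on simulated data.

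The members and the gene lists were chosen with earlier results of these data known. Named were the members, Lrig1, of each list up to 3 genes per direction past the threshold or otherwise up to 3 with the highest mean CPM, and the 3 genes most like each member. Genes named outside this rule, such as Nkd1, Cdx2, Sox2, Slit2, Robo2, Robo3, Eng, Pgc, Atp4a, Lipf, Pdgfra, Myh11, Acta2, Tff3's neighbours and the defining markers at or near 0, were chosen after their values were seen. Alternatives were DESeq2 1.42.0, limma-voom (limma 3.58.1) with sample weights, other scaling, no filter, fewer or more libraries, and runs of library numbers as a block. The deposited table gives no batch.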

Additional observations from a re-analysis of the deposited data

Results flagged for a closer look

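Of 16 sets of 4 normal libraries (8 genes in 2 groups), 14 had 1 library far from the other 3. The rate of about 5% by chance holds for values with a Gaussian distribution, not for skewed CPM with few or no counts. Tff1, for example, was flagged on 6 counts in S10 and on 8 counts in S09. The genes were also chosen as higher in tumor than in normal cells, and no share of flagged sets over all tested genes is given. Whether 14 sets exceed chance therefore cannot be decided. The measure is the gap between the extreme CPM value and its nearest neighbour, divided by the whole range of the group. In normal Lrig1-high cells the extreme library was S10, with a gap of 0.998 of the range for Muc6, 0.987 for Ctse, 0.995 for Wfdc18, 0.95 for Lrg1, 0.996 for Robo1, 1 for Muc5ac and 1 for Tff1. In normal Lrig1-low cells it was S09, with 0.993 for Muc6, 0.978 for Ctse, 0.907 for Wfdc18, 0.833 for Lrg1, 0.914 for Robo1, 1 for Tff1 and 1 for Tff2. The 2 sets without a flag were Tff2 in normal Lrig1-high cells and Muc5ac in normal Lrig1-low cells, in which S10 and S09 were also the highest libraries. The 8 genes are not independent of each other here, and the same 2 libraries carry each flag. What sets S09 and S10 apart was not tested.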

How the results depend on the processing

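Over the alternative fits, 365 of 366 tumor over normal folds of the 8 genes were positive, and most of their sizes moved by over 1 SE without S09 and S10. Counts of called genes moved more. Between fractions in tumors, edgeR called 0 genes, DESeq2 22 and the fit without S07, S08, S09 and S10 48, and leaving out 1 library gave 0 to 365, the highest without S04. In normal epithelium DESeq2 called 1 gene, limma-voom 4169, the fit without those 4 libraries 796 and that without S09 and S10 2, while leaving out any 1 library gave 0. Genes higher in tumor Lrig1-high cells were 74 in DESeq2, 1 with runs as a block and 12 without the 4 libraries, and 0 to 263 leaving out 1 library, the highest without S04. Genes higher in tumor Lrig1-low cells, 43 in edgeR, were 545 in DESeq2, 1060 in limma-voom, 66 with DESeq2 size factors, 65 without a filter, 90 with runs as a block, 90 with S15, 432 without the 4 libraries and 269 without S09 and S10. Leaving out 1 library gave 0 to 226 there: 0 without S01, 3 without S11 or S13, 4 without S05, 28 without S04, 67 without S03, 119 without S09, 150 without S07, 202 without S10 and 226 without S12. Several log2 folds of Lrig1-high over Lrig1-low cells changed sign, none of them past the threshold. In tumors Muc6 was -1.46 in limma-voom, -0.375 with the block and -2.19 to 2.06 leaving out 1 library, negative without S12. Wfdc18 was -0.99 in limma-voom, -0.0329 with the block and -1.05 to 0.93, negative without S12 or S07 (-0.05). Tff1 was 0.10 in limma-voom, 0.69 with the block and -1.19 to 0.50, positive without S11 or S12. Lrg1 ran from -1.88 to 0.90 and Muc5ac from -3.43 to 1.45, both positive without S11. In normal epithelium Muc6 was -2.08 in limma-voom, -0.70 with the block, -1.79 without the 4 libraries, -1.80 without S09 and S10, and -7.53 to 5.94 leaving out 1 library, negative without S01, S05, S13 or S10. Ctse was -2.10, -0.0333, -1.58 and -1.59 under the same 4 settings and -4.12 to 3.49 leaving out 1 library. Limma-voom also turned Wfdc18 (-1.59), Lrg1 (-1.08), Robo1 (-1.56), Muc5ac (-2.72) and Tff2 (0.86), and the block turned Lrg1 (-0.0965). Leaving out S10 or S09 took Wfdc18 from -5.83 to 3.68, Lrg1 from -2.24 to 1.96, Robo1 from -4.97 to 4.68, Muc5ac from -6.12 to 3.97 and Tff2 from -2.99 to 5.35, with opposite signs for the 2 libraries. The cause was not tested. Member folds had no value in 41 cases, where a gene failed the filter or no library reached 10 counts. The labels give no replicate numbers shared between groups, so runs of library numbers were the only block tried. Depth limits Tff1, at 41 counts or fewer per library.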
